A study of Saccharomyces pastorianus with 18 samples.

Results

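Chromosomes III and XI of the Saccharomyces eubayanus sub-genome were examined in a pair of lager yeast strains, W34/70 9.7 and CBS1538 11.1. All features listed on S. eubayanus (Seub) chromosome III or XI were taken, which gave 426 of the 11979 features of the count table, 136 on III and 290 on XI. These chromosomes had been chosen because they were partly silent in W34/70 9.7 and expressed in CBS1538 11.1, so the difference between the strains is given as a description with no test. A Saccharomyces cerevisiae (Scer) feature of the same gene name, here called the partner, was found for 347 of the 426 features, 103 on III and 244 on XI, and every partner lay on the Scer chromosome of the same number.

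Lager yeast, S. pastorianus, is a hybrid that carries chromosomes from S. cerevisiae and from the cold-tolerant S. eubayanus, so that many genes are present as a copy from each parent. Lager strains differ in how many copies of each parental chromosome they keep, and recombination between the parental chromosomes has been described in them. Chromosome III of budding yeast carries the mating-type locus MAT and the silent cassettes HML and HMR, and S. cerevisiae switches mating type by copying a cassette into a cut at MAT.

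Both strains were obtained by treating S. pastorianus with radicicol, an inhibitor of the Hsp90 chaperone, at 20, 40 or 100 µg/mL, and were then selected on 75 µg/mL of the phenylalanine analogue B2TA or 200 µg/mL of PFPA. The labels do not say which treatment gave which strain, and each strain is a single resistant isolate. Each strain was sampled on day 2 and on day 4 of a fermentation at 13°C in 10% wort with 1 mM ZnSO4, and during exponential growth at 20°C in minimal medium with 1% dextrose, 1% maltose and 0.5% ammonium sulfate as the nitrogen source. Medium and temperature thus changed together between wort and minimal medium and cannot be told apart. There were 3 libraries in each of the 6 groups, 18 in all, from cultures described as triplicates. Whether these were separate cultures from separate inocula was not given, so p-values measure the spread between these libraries. The CBS1538 11.1 day 2 libraries are titled as the mutant, but their strain field names the parental strain, and results that use them carry that doubt. Library totals ran from 5266324 to 19467656 counts.

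The W34/70 9.7 day 2 replicate 2 and day 4 replicate 1 libraries stood apart on another chromosome. Seub VII took 0.0106% and 0.00786% of their counts, against 1.86% to 2.23% in the other 7 libraries of the strain. On III and XI both followed the other libraries of the strain: over the features expressed in W34/70 9.7, the median deviation of a library from its group lay between -0.22 and 0.14 on the log2 scale in all 9. The marker genes of mating type were low throughout. Summed over both copies, the a-specific list reached 106 CPM at most, the haploid-specific list 87 CPM and the alpha-specific list 75.9 CPM, the first 2 in W34/70 9.7 on day 4 and the last in W34/70 9.7 on day 2.

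On Seub III the counts of W34/70 9.7 fell to the floor between BUD5 and TAF2. Levels are given in CPM, the counts scaled to library size with factors from the TMM method. BUD5, which encodes the exchange factor for the bud-site GTPase, ends at position 194034 of Seub III in the coordinates of the deposited table, and TAF2, a subunit of the general transcription factor TFIID, starts at 195796. In the 9 W34/70 9.7 libraries the lowest, median and highest levels of BUD5 were 10.0, 14.7 and 20.4 CPM, against 12.3, 15.1 and 19.7 CPM in the 9 CBS1538 11.1 libraries, and the ranges overlapped. TAF2 had 0 counts in all 9 W34/70 9.7 libraries and 9.76, 20.1 and 41.4 CPM in CBS1538 11.1. On the expressed side, RBK1, a ribokinase, stood at 23.2, 31.8 and 38.4 CPM in W34/70 9.7 and RRP43, a subunit of the RNA exosome, at 18.7, 52.1 and 71.2 CPM. On the other side, DI49_0793 and PER1, which acts in remodelling of GPI-anchor lipids, had 0 counts in all 9 W34/70 9.7 libraries, while PER1 stood at 90.3, 125 and 172 CPM in CBS1538 11.1.

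The gap of 1761 bp between BUD5 and TAF2 holds 2 features without a gene name in the table. DI49_0790 had 0 counts in all 18 libraries. DI49_0791 had 0 counts in W34/70 9.7 and 79 in CBS1538 11.1, where it lay at 0, 0.510 and 1.50 CPM. It was under the limit of 1 CPM and so was not among the features from which the break was found. On Scer III the table lists MATALPHA2 and MATALPHA1, the alpha genes of the mating-type locus, between BUD5 and TAF2. MATALPHA2 had 25 counts over the 9 W34/70 9.7 libraries, between 0 and 7 in each, and MATALPHA1 had 0. Both had 0 counts in CBS1538 11.1. Since MAT is filled by copying a cassette, reads of these genes could match a silent cassette too. How such reads were counted is not given, so these low counts do not show whether the genes were expressed. By gene order, the interval in which the Seub counts stopped is the one that holds MAT on the Scer copy. Neither Seub feature in the gap is named in the table, and none is assigned to MAT here.

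On Seub XI the step ran the other way, from the floor to expression, between DCW1 and PRI2. DCW1, a mannosidase of the cell wall, ends at 334850 of Seub XI and PRI2, a subunit of DNA primase, starts at 335721, which leaves a gap of 870 bp with no feature in it. DCW1 had 0 counts in all 9 W34/70 9.7 libraries and 34, 65.9 and 94.1 CPM in CBS1538 11.1. PRI2 stood at 4.27, 10.3 and 16 CPM in W34/70 9.7 and 5.38, 7.61 and 32.1 CPM in CBS1538 11.1. Before the break, ELM1, a kinase of bud morphogenesis, and DI49_3326 also had 0 counts in W34/70 9.7. After it, PHD1, a regulator of filamentous growth, stood at 9.48, 49.8 and 101 CPM and SPC42, a component of the spindle pole body, at 3.5, 8.74 and 25 CPM.

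**Figure D1:**
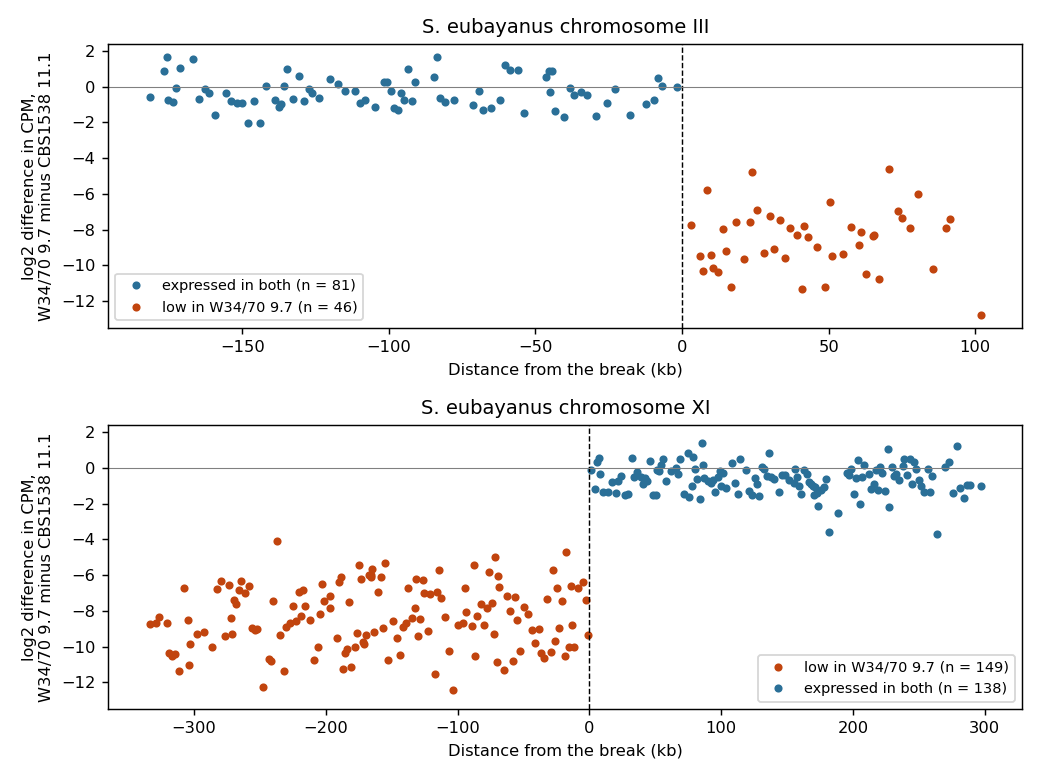
Difference between the strains for each feature with at least 1 CPM in CBS1538 11.1, as log2(CPM + 0.1) in W34/70 9.7 minus CBS1538 11.1, against its distance in kb from the break (dashed line), with 127 features on III and 287 on XI. The 81 features before the break on III and the 138 after the break on XI have medians of -0.46 and -0.60, with 24 and 27 of them above 0, and all others lie below -4.

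The break points came from a least-squares division of each chromosome into segments of level difference. Each chromosome gave 1 break. In the expressed segments the median difference W34/70 9.7 minus CBS1538 11.1 was -0.46 on III (81 features, -2.03 to 1.66) and -0.60 on XI (138 features, -3.69 to 1.41), on the log2(CPM + 0.1) scale. In the low segments it was -8.33 on III and -8.51 on XI, values that the added 0.1 limits. With library totals in place of TMM, the medians of the expressed segments were -1.01 on III and -1.15 on XI. The size of the difference in the expressed segments thus depended on the scaling. With features at or under 3 counts over the 9 W34/70 9.7 libraries set to that floor, the median level was at least 1582-fold lower in W34/70 9.7 on III and at least 1612-fold lower on XI. Each of the 9 W34/70 9.7 libraries, compared alone with the CBS1538 11.1 mean of its condition, placed a break at the same gap on both chromosomes, and 3 of them gave further breaks on XI. Within the expressed segments, the 20 features nearest to the break had a median difference of -0.40 on III and -0.60 on XI. The 20 farthest from it had -0.62 and -0.94.

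In all, the low part of III ran from TAF2 to DI49_0839, positions 195796 to 297933, with 47 features, and the low part of XI ran from 1329 to DCW1 at 334850, with 151 features. The expressed part of III held 87 features and that of XI 139. In W34/70 9.7 the low part of III had 260 counts over the 9 libraries together, 15 to 51 in each, against 1524801 counts in CBS1538 11.1. The low part of XI had 1086 counts in W34/70 9.7, 47 to 328 in each library, against 2587418 in CBS1538 11.1. Of the CBS1538 11.1 counts, DI49_0839 alone held 1140713 on III, and FBA1 and GPM1 held 538833 and 494840 on XI. In that strain 46 of the 47 features on III and 149 of the 151 on XI had a mean of at least 1 CPM. On III, 35 of the 47 features had 0 counts in all 9 W34/70 9.7 libraries together, which allows up to 3 counts each, and on XI 96 of the 151 did. Such floors cover counting error only. RNA counts do not show whether DNA was missing or not transcribed, and this was not tested.

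The few counts left in the low parts fell mostly on a handful of features. FBA1, GPM1 and TMA19 held 913 of the 1086 counts on XI, and DI49_0839 and MSH3 held 214 of the 260 on III. These 5 had the highest mean levels. FBA1, the glycolytic aldolase, had 642 Seub counts over the 9 W34/70 9.7 libraries, a mean of 6.23 CPM, beside a Scer partner at 15894 CPM, which is 3.74 Seub counts per 10000 partner counts. GPM1, phosphoglycerate mutase, had 237 Seub counts and 1.94 per 10000 partner counts. TMA19, which associates with ribosomes, had 34 counts and 1.42 per 10000. MSH3, a mismatch repair gene at the far end of III, had 39 Seub counts and 91.9 per 10000 partner counts, a higher rate than that of FBA1, GPM1 or TMA19. DI49_0839, the last feature of III, has no partner and had 175 counts, a mean of 1.40 CPM against 9731 CPM in CBS1538 11.1.

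Over all pairs, the low part of III gave 1.81 Seub counts per 10000 partner counts in W34/70 9.7 and the low part of XI 1.94. A rate of the same kind can be read in CBS1538 11.1, where Scer III was at the floor: 1.52 Scer counts per 10000 Seub counts for the pairs of the low part of III and 3.05 for those of the expressed part. For the low part of III both rates rest on few counts. In W34/70 9.7, MSH3 held 39 of the 76 Seub counts. In CBS1538 11.1, 34 of the 50 Scer counts came from minimal medium replicate 2. How reads that match both copies were assigned is not given in the sources used here, and the part of misassigned reads in these residues was not tested.

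In the expressed parts, both copies were counted in W34/70 9.7, and the balance differed between the chromosomes. For each pair the Seub share is the Seub counts as a percent of the counts of both copies, with no correction for a difference in length between them. Its median over pairs in W34/70 9.7 was 51.3% in the expressed part of III (quartiles 42.5% and 58.8%, 69 pairs) and 26.5% in that of XI (quartiles 21.5% and 32.2%, 117 pairs). The Seub copy had the larger share in 38 of 69 pairs on III and in 5 of 117 on XI. Those 5, named after their values were seen, were GAP1, the general amino acid permease, at 69.7%, NFU1, an iron-sulfur protein of mitochondria, at 68.9%, TIF1 at 68.7%, the sphingolipid phosphatase YSR3 at 62.6% and the peptide transporter PTR2 at 50.7%. TIF1 encodes the translation initiation factor eIF4A and has a near-identical copy, TIF2, so its share is uncertain. On the other Seub chromosomes the median share in W34/70 9.7 ran from 19.4% on VII to 64.8% on I. The value for VII pools in the day 2 replicate 2 and day 4 replicate 1 libraries, which were poor in counts of Seub VII, and was 24.2% without them.

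**Figure D2:**
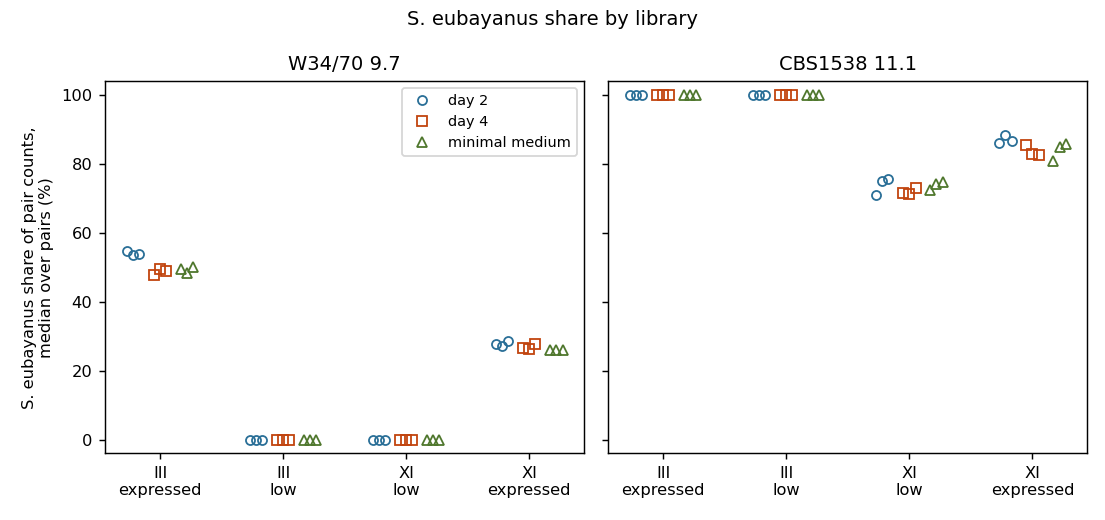
Median over pairs of the Seub share of pair counts (percent) in each library, by chromosome part, with 1 symbol per library and its shape and colour showing the condition. In W34/70 9.7 the expressed part of III lies between 47.7% and 54.6%, that of XI between 25.9% and 28.6%, and both low parts at 0. In CBS1538 11.1 III lies at 100%.

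These medians varied little between libraries. In the expressed part of III, the W34/70 9.7 share was 54.0% ± 0.51 on day 2, 48.6% ± 0.86 on day 4 and, in the minimal medium, 49.2% ± 0.92 (SD, n = 3 each), and every day 2 library was above all other W34/70 9.7 libraries. With counts pooled over the same pairs the order was the reverse, with mean shares of 42.5%, 45.9% and 48.2%. Every day 2 library was then below all others, so the direction on III depended on the summary used. In the expressed part of XI the median share was 27.9% ± 0.74 on day 2, 26.9% ± 0.72 on day 4 and, in the minimal medium, 25.9% ± 0.11, with overlap between the days. No test was made on these medians, since they are taken over the members.

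In CBS1538 11.1 the Scer partners were near the floor on both sides of the break on III, but only over parts of XI. All 347 partners had a mean of at least 1 CPM in W34/70 9.7, whether their Seub copy was silent or not. In CBS1538 11.1, 1 of the 103 partners on Scer III reached 1 CPM: PGK1, phosphoglycerate kinase, at 3.5 CPM beside a Seub copy at 6508 CPM. The median Seub share was 100% over III, in every CBS1538 11.1 library.

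On XI, CBS1538 11.1 counted both copies along most of the left side and the centre and the Seub copy alone elsewhere. In Seub gene order, the Scer partners from YRA2 to EAP1 (10 pairs) were under 1 CPM, and those from TOR2 to VMA5 were above it except STE3 and SRX1. The 5 from SMY1 to STB6 were again under 1 CPM. Those from NUP100 to KAE1 were above it except ECM9, and the last 51, from GAP1 to SKG1, were under it. Over the runs with partners at 1 CPM or more, the median Seub share was 66.3% from TOR2 to COY1, 72.7% from LST4 to CYT2, 72.8% from MDH1 to VMA5, 66.7% from NUP100 to OSH6 and 72.7% from MRPL13 to KAE1. The changes of the Scer copies in CBS1538 11.1 did not fall at DCW1 and PRI2: the run from NUP100 to OSH6 spans that gap, with the Scer copy of DCW1 at a median of 90.4 CPM and that of PRI2 at 10.1 CPM.

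**Figure D3:**
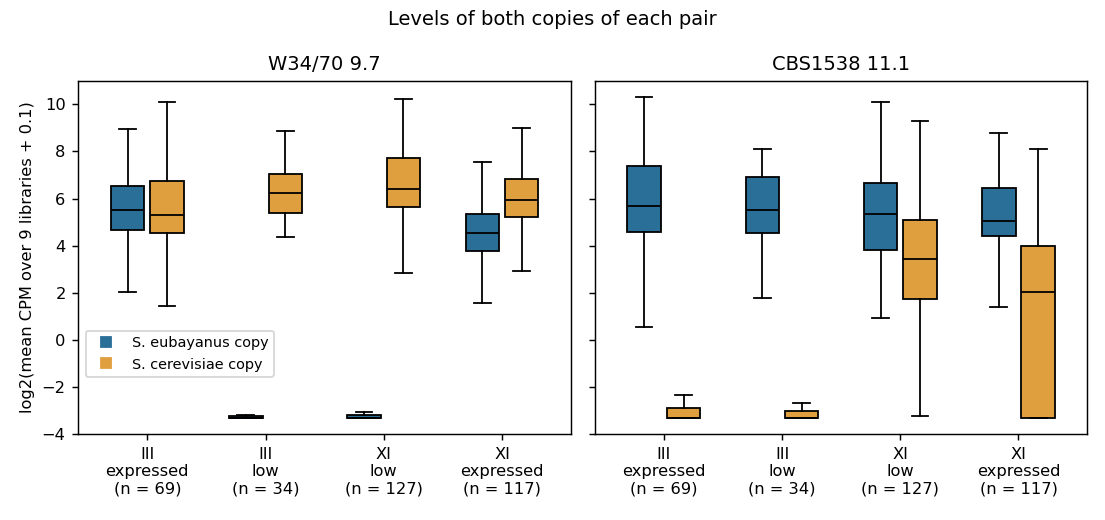
Levels of the Seub copy (blue) and of its Scer partner (orange) over the pairs of each chromosome part, as log2(mean CPM over the 9 libraries of a strain + 0.1). Boxes show quartiles and median and whiskers the most extreme value within 1.5 times the box, without points beyond. In W34/70 9.7 the Seub boxes of the low parts sit at the floor while the Scer boxes do not. In CBS1538 11.1 the Scer boxes of III sit at the floor.

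In the low part of III, the sum of both copies differed less between the strains, by median, than in the other sets. The low part of XI lay near the value for all other chromosomes. The quartiles of the sets overlapped. The median difference in summed level, W34/70 9.7 minus CBS1538 11.1 on the log2(CPM + 0.1) scale, was 0.49 over the 34 pairs of the low part of III and 0.76 over the 127 pairs of the low part of XI. It was 0.79 over the 69 pairs of the expressed part of III and 1.02 over the 117 of XI, and 0.79 over the 4039 pairs of all other chromosomes. Its quartiles were -0.05 and 0.96 in the low part of III and 0.08 and 1.45 in that of XI. Over all other chromosomes they were 0.18 and 1.39. These values are over all conditions together. Within each condition the low part of XI lay above the expressed part of III. The medians were 0.69 against 0.61 on day 2 and 0.76 against 0.67 on day 4. In minimal medium they were 0.76 and 0.58. These differences between strains rest on the TMM factors. Whether the Scer copy made up for the silent Seub copy was not tested. In W34/70 9.7 the median level of the Scer partner was 74.7 CPM for the low part of III and 39.9 CPM for its expressed part, and 85.7 CPM against 61.1 CPM on XI. These compare different genes in CPM that are not corrected for length.

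Changes between conditions were tested within each strain, a comparison that the choice of the chromosomes had not used. Features were fitted together over both sub-genomes with edgeR's quasi-likelihood test, and a feature counted as changed when its p, adjusted by Benjamini-Hochberg over all 10894 features tested, was under 0.05. All adjusted p-values below come from that test. The SE beside a log2 change was worked back from it, as the size of the change divided by the square root of the F statistic. The changes from day 2 to day 4 and from day 4 to minimal medium share the day 4 libraries and are not independent. Of the 226 features in the expressed parts, 222 were tested in W34/70 9.7, and of all 426 members 419 were tested in CBS1538 11.1. The share called over all features includes Scer features that are silent in CBS1538 11.1 and so understates the share among expressed ones. In W34/70 9.7 it includes the low parts, with 46 tested features on III and 150 on XI. The 222 features were taken from the expressed parts, so the comparison with all features is not like for like there either.

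From day 2 to day 4 of the wort fermentation, 91 of the 222 features of the expressed parts changed in W34/70 9.7, 43 up and 48 down, where 28.6% (16.1% higher and 12.5% lower) of all features tested were called. The rises were led by KAR4, a factor for mating and meiosis genes, with 3.61, 11 and 2.42 CPM on day 2 and 46.5, 19.7 and 13.9 CPM on day 4 (log2 change 2.22 ± 0.50 (SE), adjusted p = 0.00476), all day 4 values above all day 2 values. RRP7, an rRNA processing factor, had 10.4, 31 and 6.57 CPM on day 2 and 97.3, 64.3 and 43.8 CPM on day 4 (log2 change 2.09 ± 0.47 (SE), adjusted p = 0.00457). MRPL32, of the mitochondrial large ribosomal subunit, had 15.7, 15.7 and 13.8 CPM on day 2 and 63.7, 67.5 and 47.2 CPM on day 4 (log2 change 1.98 ± 0.23 (SE), adjusted p = 0.000101). Of these 3, the groups did not overlap, and the libraries of MRPL32 were the closest within each day. YPT52, a Rab GTPase of endosomes, rose by 1.87 on the log2 scale and MRP17, of the mitochondrial small ribosomal subunit, by 1.46. Fitted on these groups alone, KAR4 and RRP7 missed the threshold, and MRP17 missed it without day 2 replicate 1 or 3 or day 4 replicate 2.

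The falls were led by ILV6, which encodes the regulatory subunit of an enzyme of isoleucine and valine synthesis, with 643, 439.6 and 733 CPM on day 2 and 107, 109.8 and 142 CPM on day 4 (log2 change -2.34 ± 0.25 (SE), adjusted p = 7.57e-05). GLK1, a glucokinase, had 2579, 1793 and 2784 CPM on day 2 and 417, 553 and 694 CPM on day 4 (log2 change -2.11 ± 0.27 (SE), adjusted p = 0.000159). STP22, of the ESCRT-I sorting complex, changed by -2.23 on the log2 scale, the malic enzyme gene MAE1 by -1.89 and PGK1 by -1.84, with no overlap between the days. The Scer partners of ILV6 and STP22 changed by -2.51 (adjusted p = 0.0051) and -2.04 (adjusted p = 0.000315). That of GLK1 changed by -1.94 (adjusted p = 0.102) and did not pass the test. The split between rises and falls depended on the scaling: with library totals in place of TMM, which moves all log2 changes of this comparison up by 0.43, 74 members rose and 25 fell. Fitted on these 2 groups alone, 54 were called, 13 up and 41 down.

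In CBS1538 11.1, 122 of the 419 members changed from day 2 to day 4, 65 up and 57 down, where 16.1% (7.85% higher and 8.21% lower) of all features were called. The day 2 libraries are those with the conflicting strain label. VPH2, needed to assemble the vacuolar ATPase, had 0.734, 2.60 and 5.24 CPM on day 2 and 18.2, 15.4 and 17.6 CPM on day 4 (log2 change 2.52 ± 0.53 (SE), adjusted p = 0.0119), with no overlap. MCR1, a mitochondrial cytochrome b5 reductase, had 43.7, 54.9 and 64 CPM on day 2 and 277, 238 and 252 CPM on day 4 (log2 change 2.24 ± 0.34 (SE), adjusted p = 0.00103). FOX2, of peroxisomal beta-oxidation, rose by 1.87 on the log2 scale, MRP17 by 1.85 and DRE2, of cytosolic iron-sulfur assembly, by 1.83. VPH2 and MCR1 lie in the low part of XI, and over the 9 W34/70 9.7 libraries they had 0 and 5 Seub counts.

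Among the falls, RRP14, a ribosome biogenesis factor, had 11.4, 18 and 27.1 CPM on day 2 and 1.2, 1.87 and 3.33 CPM on day 4 (log2 change -3.13 ± 0.44 (SE), adjusted p = 0.00102), and NAP1, a histone chaperone, had 242, 159.9 and 166 CPM on day 2 and 43.1, 59.9 and 56.8 CPM on day 4 (log2 change -1.83 ± 0.22 (SE), adjusted p = 0.000264). In both, every day 4 value was below every day 2 value. CAB3, of coenzyme A synthesis, changed by -1.77, STP22 by -1.75 and the nuclear pore gene MLP1 by -1.71 on the log2 scale. With library totals the split was 75 up and 38 down. Without any one of the CBS1538 11.1 day 4 libraries the count fell, to 79 without replicate 1, 73 without replicate 2 and 74 without replicate 3, and CAB3 missed the threshold without replicate 2.

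From day 4 to minimal medium, 105 of the 222 features changed in W34/70 9.7, 47 up and 58 down, where 43.1% (20.2% higher and 23% lower) of all features were called. PTR2, the transporter of di- and tripeptides, had 97.6, 69.7 and 163 CPM on day 4 and 2.13, 1.49 and 2.40 CPM in minimal medium (log2 change -5.77 ± 0.36 (SE), adjusted p = 3.51e-08), the largest fall. GLK1 had 417, 553 and 694 CPM on day 4 and 19, 20.3 and 13.8 CPM in minimal medium (log2 change -4.97 ± 0.30 (SE), adjusted p = 2.81e-08). All minimal medium values of both genes were below all day 4 values.

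AGP1, an amino acid permease, changed by -2.55 on the log2 scale, the glycogenin gene GLG1 by -2.53 and PHD1 by -2.53. The Scer partners of PTR2, GLK1, AGP1 and GLG1 also fell, with log2 changes of -4.10 (adjusted p = 1.18e-05), -4.22 (adjusted p = 0.00263), -3.51 (adjusted p = 5.22e-05) and -3.52 (adjusted p = 4.87e-05). GLG1 has a paralogue, GLG2, with which reads could be shared. The rises were led by ADF1, a DNA-binding repressor, with 5.31, 7.05 and 2.37 CPM on day 4 and 28.1, 34.3 and 35.3 CPM in minimal medium (log2 change 2.72 ± 0.47 (SE), adjusted p = 0.000319). On Scer III, ADF1 lies antisense to FYV5, and whether strand was used in counting is not given, so its Scer value is uncertain. FEN1, a fatty acid elongase, had 49.3, 51.2 and 46 CPM on day 4 and 249.7, 193 and 256 CPM in minimal medium (log2 change 2.25 ± 0.32 (SE), adjusted p = 6.97e-05). The ribosome assembly genes RPF2, MRT4 and KRR1 rose by 2.07, 2.06 and 1.61, and their Scer partners by 2.11 (adjusted p = 0.00116), 2.07 (adjusted p = 0.000277) and 1.60 (adjusted p = 0.00153).

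In CBS1538 11.1, 193 of the 419 members changed from day 4 to minimal medium, 93 up and 100 down, where 28.2% (13.4% higher and 14.8% lower) of all features were called. RRP14 had 1.2, 1.87 and 3.33 CPM on day 4 and 40.4, 34.5 and 30.6 CPM in minimal medium (log2 change 4.02 ± 0.45 (SE), adjusted p = 5.07e-05), and EBP2, required for large ribosomal subunit synthesis, had 3.61, 6.81 and 9.89 CPM on day 4 and 111, 109 and 57.8 CPM in minimal medium (log2 change 3.76 ± 0.42 (SE), adjusted p = 4.69e-05). LTV1, of small subunit export, rose by 3.19 on the log2 scale, the ribosomal RNA methyltransferase SPB1 by 3.12 and MNN4, of mannosylphosphorylation, by 3.08. Of these, MNN4 had 1 replicate far above the others in minimal medium, at 719 CPM against 176 and 189 CPM. The falls were led by MBR1, linked to mitochondrial function, with 100.3, 81.5 and 83.4 CPM on day 4 and 9.16, 7.76 and 10.2 CPM in minimal medium (log2 change -3.28 ± 0.22 (SE), adjusted p = 6.15e-06), and CIT2, the peroxisomal citrate synthase, with 2711, 2496 and 2277 CPM on day 4 and 379, 309.8 and 362 CPM in minimal medium (log2 change -2.83 ± 0.32 (SE), adjusted p = 1.18e-05). AGP1 fell by 2.76 on the log2 scale, SED4, of vesicle budding at the endoplasmic reticulum, by 2.74 and PET18 by 2.60.

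The lists by role hold 4 to 14 tested features each, so their counts are coarse and are set beside the shares of all features called in the same comparison. In CBS1538 11.1 each list also holds features of the low parts, so the counts of the strains cover different genes. Most genes of the ribosome and translation that were tested rose in minimal medium. Of 9 tested in the expressed parts in W34/70 9.7, 7 rose from day 4 to minimal medium and 0 fell, where 20.2% of all features rose and 23% fell, with a median log2 change of 1.41 against 0 over all features, and 10 of the 14 Scer partners of the whole list rose. RPS14A, a protein of the small subunit, had 567, 607 and 439.5 CPM on day 4 and 1295, 1791 and 1194 CPM in minimal medium (log2 change 1.41 ± 0.28 (SE), adjusted p = 0.000853), with its paralogue RPS14B able to share reads. In CBS1538 11.1, 8 of 14 rose and 1 fell, beside 13.4% and 14.8% of all features, with a median of 0.90 against 0. RPF2 rose by 2.37 and BUD23, a methyltransferase of 18S rRNA, by 1.59. Between days 2 and 4, 3 of 9 rose in W34/70 9.7 and 0 fell, and in CBS1538 11.1 1 of 14 rose and 1 fell, RPS27A by 1.37 and BUD23 by -1.42. Of all features 16.1% rose and 12.5% fell between those days in W34/70 9.7, and 7.85% and 8.21% in CBS1538 11.1. RPS27A missed the threshold without day 2 replicate 1 or 2, and it too has a paralogue, RPS27B, that could share reads.

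Of the 8 genes of carbon metabolism tested in W34/70 9.7, 7 fell from day 4 to minimal medium and 0 rose, where 23% of all features fell and 20.2% rose, with a median log2 change of -2.47 against 0 over all features. In CBS1538 11.1 4 of 11 fell and 2 rose, beside 14.8% and 13.4% of all features, with a median of 0.34. The 11 include FBA1, GPM1 and PGM1 of the low part of XI, which the 8 do not. CIT2 had 731, 1096 and 1838 CPM on day 4 and 237, 239 and 219 CPM in minimal medium in W34/70 9.7 (log2 change -2.40 ± 0.31 (SE), adjusted p = 3.02e-05). MAE1, which fell from day 2 to day 4 in both strains, rose in CBS1538 11.1 from day 4 to minimal medium by 1.02. Between days 2 and 4, 4 of 8 fell and 1 rose in W34/70 9.7 and 4 of 11 fell and 2 rose in CBS1538 11.1, where PGK1 changed by -1.62 and CIT2 by 1.36. The shares of all features that fell between those days were 12.5% in W34/70 9.7 and 8.21% in CBS1538 11.1.

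Genes of amino acid and nitrogen metabolism were mixed. In CBS1538 11.1 4 of 14 rose and 6 fell from day 4 to minimal medium, among the falls HIS4, of histidine synthesis, with 902, 988 and 1018 CPM on day 4 and 291, 411 and 447 CPM in minimal medium (log2 change -1.34 ± 0.26 (SE), adjusted p = 0.00101), and the activator BAS1 at -1.07. The counts in W34/70 9.7 were 2 of 12 up and 3 down, HIS4 by -1.02 and BAS1 by -0.88, and these 5 of 12 are near the 43.1% called over all features. The share over all features in CBS1538 11.1 was 28.2%. Over the fermentation, 1 of 12 fell in W34/70 9.7 and 0 rose, and in CBS1538 11.1 2 of 14 rose, among them MET14, the APS kinase of sulfate assimilation, by 1.41, and 1 fell, ILV6 by -1.45, where 28.6% and 16.1% of all features were called. MET14 missed the threshold when any one library of the compared groups except day 2 replicate 3 was left out.

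Of the mitochondrial genes, 10 of 14 lie in the low parts and were read in CBS1538 11.1 alone on the Seub side. There, HAP4, the activating subunit of the respiratory regulator, had 756, 666 and 693 CPM on day 4 and 189, 137 and 119.9 CPM in minimal medium (log2 change -2.25 ± 0.27 (SE), adjusted p = 8.73e-05), after a rise of 1.21 from day 2 to day 4. Over the list, 5 of 14 rose and 2 fell from day 2 to day 4, beside 7.85% and 8.21% of all features. From day 4 to minimal medium 3 rose and 4 fell, beside 13.4% and 14.8%. On the Seub side of W34/70 9.7, 3 of 4 fell from day 2 to day 4, among them the cysteine desulfurase NFS1 by -1.29, and 2 of 4 rose from day 4 to minimal medium, among them the ATP synthase subunit ATP7 by 0.97. With 4 features these are set beside 12.5% of all features that fell and 20.2% that rose in those comparisons.

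Of the lipid and peroxisome genes, 4 of 13 rose and 5 fell from day 4 to minimal medium in CBS1538 11.1 and 1 of 5 rose and 3 fell in W34/70 9.7, where 28.2% and 43.1% of all features were called. LAC1, a ceramide synthase, changed by -1.50 in CBS1538 11.1 and PBN1, of GPI-anchor synthesis, by -1.36, and PBN1 by -1.05 in W34/70 9.7. Over the fermentation, 3 of 13 rose and 1 fell in CBS1538 11.1, and 2 of 5 rose and 0 fell in W34/70 9.7, where 16.1% and 28.6% of all features were called. The same shares of all features apply to the next lists. In the list of mating, cell wall and polarity, 4 of 12 rose and 0 fell from day 4 to minimal medium in CBS1538 11.1, among them the actin-binding protein gene ABP1 by 1.82. The W34/70 9.7 counts were 2 of 8 up and 1 down, the fall being BUD5, next to the break on III, by -0.64, which missed the threshold without minimal medium replicate 2. Between the 2 wort days, 3 of 12 rose and 3 fell in CBS1538 11.1, and 2 of 8 rose and 1 fell in W34/70 9.7. Of the genes of protein folding and turnover, 1 of 11 rose and 3 fell from day 4 to minimal medium in CBS1538 11.1, the vacuolar ATPase subunit VMA5 by -1.64 and the ubiquitin-activating enzyme UBA1 by -1.66. Only 1 of 5 changed in W34/70 9.7, a fall, PDI1, the protein disulfide isomerase, by -1.41. Between the 2 wort days, 1 of 11 rose and 0 fell in CBS1538 11.1, RPT1 of the proteasome by 1.43 (past the threshold except without day 4 replicate 3), and 2 of 5 fell in W34/70 9.7, PDI1 by -1.42 and RNQ1 by -1.39.

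The change from day 4 to minimal medium was compared between the strains in the same fit. Of the 222 features of the expressed parts, 30 differed, 14 with the higher change in W34/70 9.7 and 16 with the lower, where 10.4% (4.66% higher and 5.76% lower) of all features were called. GLK1 stood at 417, 553 and 694 CPM on day 4 and 19, 20.3 and 13.8 CPM in minimal medium in W34/70 9.7, and at 1028, 967 and 758 CPM and 955, 1083 and 997 CPM in CBS1538 11.1 (difference in log2 change, W34/70 9.7 minus CBS1538 11.1, -5.11 ± 0.38 (SE), adjusted p = 9.87e-07). PTR2 stood at 382, 412 and 365 CPM and 306, 226 and 303 CPM in CBS1538 11.1, against the fall in W34/70 9.7 given above (difference in log2 change, W34/70 9.7 minus CBS1538 11.1, -5.30 ± 0.44 (SE), adjusted p = 2.42e-06). For both genes, the minimal medium values of W34/70 9.7 lay far below those of every other group.

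GPT2, the glycerol-3-phosphate acyltransferase that begins glycerolipid synthesis, stood at 42.1, 41.9 and 69.1 CPM on day 4 and 31.4, 22 and 25.4 CPM in minimal medium in W34/70 9.7, and at 31.9, 39.7 and 37.5 CPM and 211, 177 and 155 CPM in CBS1538 11.1 (difference in log2 change, W34/70 9.7 minus CBS1538 11.1, -3.27 ± 0.37 (SE), adjusted p = 4.10e-05). PHD1, the second feature after the break on XI, stood at 94.3, 101 and 99.7 CPM and 22.1, 9.48 and 19.4 CPM in W34/70 9.7 and at 69.6, 87.5 and 104 CPM and 222, 188 and 169.6 CPM in CBS1538 11.1 (difference in log2 change, W34/70 9.7 minus CBS1538 11.1, -3.68 ± 0.47 (SE), adjusted p = 0.000106). Both genes fell in W34/70 9.7 and rose in CBS1538 11.1. SLM5, a mitochondrial asparaginyl-tRNA synthetase, stood at 25.8, 29.8 and 23.1 CPM and 30.1, 26.6 and 38 CPM in W34/70 9.7 and at 42.6, 40.1 and 35.9 CPM and 12.5, 15.3 and 18.6 CPM in CBS1538 11.1 (difference in log2 change, W34/70 9.7 minus CBS1538 11.1, 1.62 ± 0.27 (SE), adjusted p = 0.00116), the W34/70 9.7 groups overlapping. The split of the 30 moved with scaling, to 9 and 15 with library totals and 10 and 21 with the RLE factors, and without CBS1538 11.1 day 4 replicate 2 the count was 19.

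**Figure D4:**
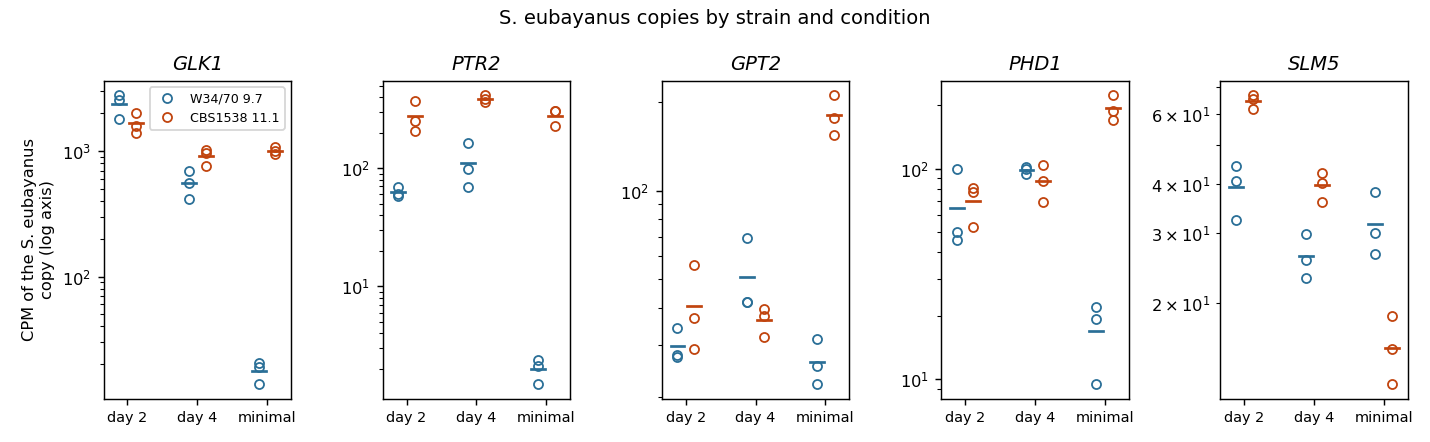
CPM of the Seub copy of 5 genes in every library (circles) with the mean of each group (line), on a log axis that differs between panels, by condition in W34/70 9.7 (blue) and CBS1538 11.1 (red). GLK1 and PTR2 drop in minimal medium in W34/70 9.7 and stay near their day 4 level in CBS1538 11.1, and GPT2 and PHD1 move in opposite directions.

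Whether the balance of the copies moved between conditions was tested per pair, with the library as a block, over pairs with both copies at 1 CPM or more. From day 2 to day 4 in W34/70 9.7, 26 of 186 member pairs changed, 6 toward the Seub copy and 20 away from it, where 9.36% (1.99% higher and 7.37% lower) of 4028 pairs were called, and the median log2 ratio change was -0.17 over the members and -0.18 over all pairs. The 186 include 2 pairs of the low part of XI, where few Seub counts were left, and 0 of these were called in either W34/70 9.7 comparison. The Seub share of MRPL13, of the mitochondrial large ribosomal subunit, was 49.8%, 46.5% and 50.2% on day 2 and 31.6%, 32.2% and 31.6% on day 4 (log2 ratio change -1.03 ± 0.12 (SE), adjusted p = 0.00694). ARC19, of the Arp2/3 actin complex, went the other way, with 12.4%, 10.9% and 14.4% on day 2 and 24.6%, 26.4% and 24.5% on day 4 (log2 ratio change 1.23 ± 0.14 (SE), adjusted p = 0.00694). DAL80, a repressor of nitrogen catabolic genes, had 95.5%, 92.4% and 91.3% on day 2 and 52.9%, 66.7% and 34.5% on day 4 (log2 ratio change -3.73 ± 0.54 (SE), adjusted p = 0.0105), with wide scatter on day 4. The septin gene CDC10 had a mean share of 32.7% and then 45.6%, and NFU1 75.9% and then 58.1%. CDC10 and NFU1 missed the threshold without day 4 replicate 2, and NFU1 also without day 4 replicate 3.

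From day 4 to minimal medium in W34/70 9.7, 25 of 186 pairs changed, 9 toward the Seub copy and 16 away from it, where 12.7% (6.93% higher and 5.73% lower) of all pairs were called. ECM4, a glutathione transferase, had 12.6%, 13.1% and 7.43% on day 4 and 41.4%, 50.7% and 46.9% in minimal medium (log2 ratio change 2.84 ± 0.29 (SE), adjusted p = 0.00329), the only one of the 5 pairs with the smallest p that moved toward the Seub copy. PTR2 had 51.2%, 52.1% and 54.7% on day 4 and 30.2%, 21.9% and 26% in minimal medium (log2 ratio change -1.66 ± 0.21 (SE), adjusted p = 0.00552), so the Seub copy fell further than its partner. PDI1 had 26.8%, 28.2% and 28.6% on day 4 and 14.6%, 12.6% and 16.5% in minimal medium (log2 ratio change -1.19 ± 0.15 (SE), adjusted p = 0.00586). The share of MET14 went from a mean of 42.3% to 16.5% and that of VPS1, a dynamin of vacuolar sorting, from 38.4% to 26.0%. VPS1 missed the threshold without minimal medium replicate 1 or 2. The copy ratio counts in W34/70 9.7 moved with single libraries. The day 2 to day 4 count was 9 and 14 without day 2 replicates 1 and 3, and 15, 4 and 4 without day 4 replicates 1, 2 and 3. The minimal medium count was 11 without day 4 replicate 2 and 5, 7 and 9 without minimal medium replicates 1, 2 and 3. Without the pair of libraries poor in Seub VII counts the counts were 38 and 41. The share of all pairs called in each of these refits is not given here.

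In CBS1538 11.1 176 member pairs could be tested, 1 of them on III. From day 2 to day 4, 31 changed, 11 toward the Seub copy and 20 away from it, where 19% (6.94% higher and 12.1% lower) of 1052 pairs were called. MAE1 had a Seub share of 81.2%, 75.8% and 69.6% on day 2 and 57.4%, 54.1% and 48.8% on day 4 (log2 ratio change -1.44 ± 0.21 (SE), adjusted p = 0.00148). The vacuolar zinc transporter ZRT3 had 82%, 79.3% and 81% on day 2 and 68.2%, 69% and 69.2% on day 4 (log2 ratio change -0.93 ± 0.13 (SE), adjusted p = 0.00133). The mean share of MDH1, mitochondrial malate dehydrogenase, went from 88.6% to 77.7%, that of CUE2 from 96.2% to 85.4% and that of PRS1, of phosphoribosyl pyrophosphate synthesis, from 61.5% to 73.8%. Without day 4 replicates 1, 2 and 3 in turn, the count was 14, 14 and 13, and with pairs of any total above 0 it was 0, so that none of the 5 passed.

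From day 4 to minimal medium in CBS1538 11.1, 46 of 176 pairs changed, 27 toward the Seub copy and 19 away from it, where 29.5% (19.5% higher and 9.98% lower) of pairs were called. MBR1 had 79.4%, 80.4% and 81.1% on day 4 and 51.2%, 53.1% and 48% in minimal medium (log2 ratio change -2.0 ± 0.20 (SE), adjusted p = 3.39e-05). UGP1, which makes UDP-glucose, had 55.3%, 56.2% and 56.8% on day 4 and 79.2%, 75.6% and 73.4% in minimal medium (log2 ratio change 1.32 ± 0.14 (SE), adjusted p = 6.66e-05). In both, the groups did not overlap. The mean share of IXR1, a DNA-binding protein of hypoxic regulation, went from 35.0% to 55.7%, that of LAC1 from 82.2% to 60.1% and that of ACP1, the mitochondrial acyl carrier protein, from 22% to 38.0%. With pairs of any total above 0 the count was 7, without UGP1 and IXR1.

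**Figure D5:**
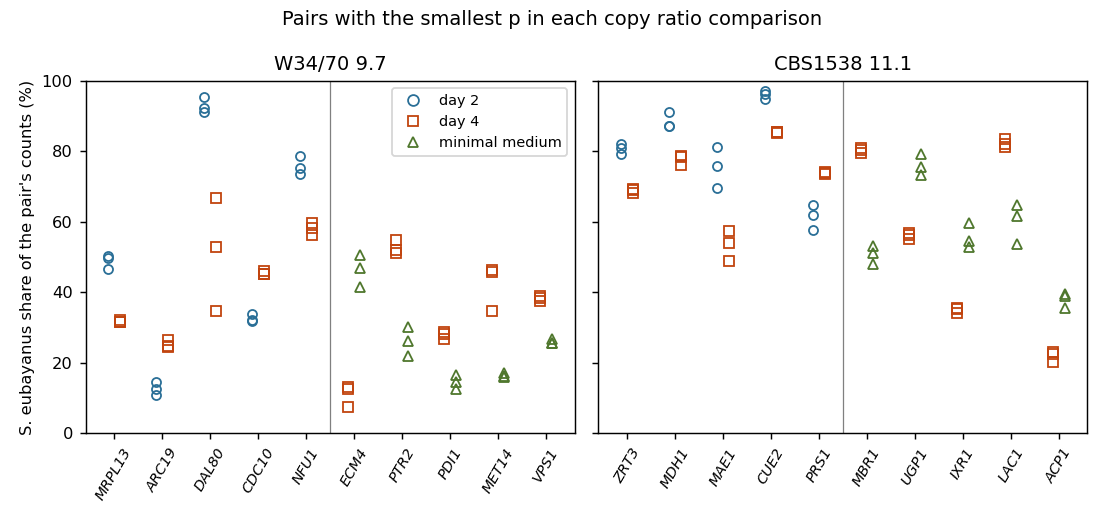
Seub share of the pair's counts (percent) in each library for the 5 pairs with the smallest p in each of the 4 comparisons, with day 4 against day 2 left of the grey line and minimal medium against day 4 right of it. The groups of every pair shown do not overlap.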

How the data were processed

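RNA was sequenced as paired 150 bp Illumina reads in 18 libraries, per the labels' protocols. The deposited table holds raw counts per feature for both sub-genomes, as made by the authors, and the submitters' processing notes name STAR, SAMtools, featureCounts, DESeq2 and the S. cerevisiae build R64. Which assembly of S. eubayanus was used, how reads matching both copies were treated and whether strand was used: not given in the sources used here. The column of feature lengths, another number in the deposited table, was not used for levels. Features were joined to partners by gene name where it occurred once in each sub-genome (4386 pairs). Counts were tested with edgeR 4.0.16 in R 4.3.3 after a filter of low counts (minimum count 10, minimum total 15), with TMM scaling over the 6 groups, and Benjamini-Hochberg adjustment over 10894 of 11979 features. DESeq2, RLE factors, library totals, no filter, a replicate block, the compared groups alone and each library left out were tried as alternatives. Copy ratios were fitted in edgeR over pairs with both copies at 1 CPM or more. Segments were at least 5 features long, from features with at least 1 CPM in CBS1538 11.1, with a pseudocount of 0.1. The fits were tested on simulated data. Named genes were the 5 largest rises and falls per comparison among called members with non-overlapping groups and at least 4 log2 CPM, the examples of smallest p in 7 gene lists, 3 features on each side of a break, the 5 highest left in the low parts, and the 5 of smallest p in the strain difference and in each copy ratio comparison. The members and lists were chosen with earlier results of these data known. Fits without the CBS1538 11.1 day 2 libraries, copy ratios without pairs on Seub VII and the Seub VII share without its 2 poor libraries were added after seeing the data.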

Additional observations from a re-analysis of the deposited data

Results flagged for a closer look

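5 members were singled out because their change from day 4 to minimal medium differed between the strains, by the test of the difference itself in edgeR's quasi-likelihood fit. The difference in log2 change, W34/70 9.7 minus CBS1538 11.1, was -5.11 for GLK1, -5.30 for PTR2, -3.27 for GPT2, -3.68 for PHD1 and 1.62 for SLM5. Within W34/70 9.7 the log2 changes were -4.97, -5.77, -0.96, -2.53 and 0.27 in that order, and within CBS1538 11.1 0.14, -0.47, 2.32, 1.15 and -1.35. The 5 are those with the smallest p among the members of the expressed parts. The groups hold 3 libraries each, too few to test whether a single library stands apart.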

How the results depend on the processing

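The break on III was placed at a midpoint of 194915 and that on XI at 335285.5 under other pseudocounts, segment sizes, scalings and single libraries. The exception was a lower level limit of 0.5 CPM in CBS1538 11.1, which let DI49_0791 enter and gave 195686 on III. The number of breaks on XI was 1 except in single libraries of W34/70 9.7: 2 in day 2 replicate 1, 5 in day 2 replicate 3 and 2 in day 4 replicate 1. Among the counts of called members, fitting the compared groups only gave 54 for W34/70 9.7 day 4 minus day 2. With the replicate number as a block, the copy ratio counts in W34/70 9.7 were 3 for day 4 minus day 2 and 9 for minimal medium minus day 4. Same-numbered libraries did not deviate together in every pair (r from -0.79 to 0.70 for W34/70 9.7 day 4 and day 2), so the numbers were not taken as a pairing. In that comparison the highest r with a library of another number was 0.90 for replicate 1 and 0.76 for replicate 2. The fits without a block treated the libraries as independent, and a pairing under other numbers was not tested. Without the 2 libraries poor in Seub VII the minimal medium copy ratio count was 41. With both copies at any total above 0, the CBS1538 11.1 copy ratio counts were 0 for day 4 minus day 2 and 7 for minimal medium minus day 4. Leaving out each library in turn gave 64 to 93, 85 to 95, 73 to 106 and 144 to 176 members for the 4 changes within a strain, in the order W34/70 9.7 day 4, W34/70 9.7 minimal medium, CBS1538 11.1 day 4 and CBS1538 11.1 minimal medium, and 19 to 30 for the strain difference. For the copy ratio it gave 4 to 24, 5 to 19, 13 to 41 and 35 to 41 in that order. The causes were not tested. These counts stand without the share of all features or pairs called in the same refit. A general change in power therefore cannot be told apart from a change in the members. Of the 122 results on named genes, no alternative reversed a direction: 1567 values stayed on the same side of the threshold and 84 fell short of it, 52 of these when a library was left out. With 3 libraries per group, depth limits the low parts of W34/70 9.7, where most features are at 0 counts.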
